A study of Mus musculus with 72 samples.

Results

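The genes described here encode the pores, auxiliary subunits and relatives of the voltage-gated calcium channels together with the channels that release calcium from the endoplasmic reticulum. They are the protein-coding genes whose symbol begins with Cacna1, Cacna2d, Cacnb or Cacng, and the ryanodine receptor genes Ryr1 to Ryr3 and IP3 receptor genes Itpr1 to Itpr3. By this rule 32 of the 55401 genes of the count table were members. They comprised 4 L-type pores (CaV1), 3 pores of the CaV2 class, 3 T-type pores (CaV3), 4 alpha2delta subunits, 4 beta subunits, 8 gamma subunits, 3 ryanodine receptors and 3 IP3 receptors. Their expression was measured by bulk RNA-seq of poly(A) RNA from the right brain hemisphere of 72 C57Bl/6NTac mouse pups, 1 library a pup. The series' design text names the tissue as cortex.

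The pups were treated with morphine or saline in 3 windows. PND1 pups were exposed before birth through an osmotic minipump in the dam, filled with morphine (10 mg/kg/day) or with saline, and were dissected 6 h after birth was discovered (4 morphine females, 6 morphine males, and 7 females and 7 males with saline). PND14 pups were injected subcutaneously with morphine at 10 mg/kg or with saline 2 times a day from birth and dissected 6 h after the last injection (6 pups of each drug and sex). In 3-Tri, pump and injections followed each other, with the same drug in both (6 pups of each drug and sex). The drug was set by the dam in the prenatal exposure, and which litter a sequenced pup came from is not stated, so the p-values measure the spread between pups, of which several can share a dam. Windows differ in age, in the route of treatment and in handling, which cannot be told apart.

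Voltage-gated calcium channels open when a neuron depolarises. The Cacna1 genes encode the pores, of which P/Q-type (Cacna1a) and N-type (Cacna1b) channels trigger transmitter release and are inhibited by opioid receptors through G protein beta-gamma subunits, L-type channels couple activity to transcription, and T-type channels open near rest and support burst firing. The alpha2delta and beta subunits bring the pores to the membrane and set their gating. Most gamma subunits in brain are transmembrane AMPA receptor regulatory proteins (TARPs), which traffic and tune AMPA-type glutamate receptors rather than calcium channels. Ryanodine receptors release stored calcium in response to calcium, and IP3 receptors do so in response to IP3 made downstream of receptors coupled to phospholipase C.

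Total counts were 20742862 to 27333125 a library in PND1 pups, 4407544 to 21404819 in PND14 pups and 3113919 to 19938980 in 3-Tri pups, and 1 library in each of the last 2 windows held under 5000000 counts. The sex-specific genes Xist and Ddx3y went against the sex label in 4 of 24 PND1 libraries, 0 of 24 PND14 libraries and 12 of 24 3-Tri libraries. Groups are therefore given by their label as male-coded or female-coded, and each drug effect is also given with both codes joined, as the mean of the 2 effects by code. With the sex code left out of the fit, an alternative added after seeing the data, the joined comparisons called the same members at PND1 (7) and PND14 (2) and 0 in 3-Tri. Levels are in CPM, the counts of a gene scaled to a common total count, after TMM scaling over all 72 libraries. At PND1 some libraries held both transcripts. Xist was at 96.4 and Ddx3y at 48.9 CPM in female-coded morphine replicate 4. In this order, female-coded saline replicate 5 had 9.97 and 48.9 CPM. Female-coded morphine replicate 3 (406 and 8.79 CPM) and male-coded morphine replicate 6 (13.8 and 69.5 CPM) passed as fitting their label. So did male-coded saline replicate 11 (10.55 and 58.0 CPM). Whether these hold RNA of several pups, and whether PND1 drug labels hold, was not tested. A gene was called where edgeR's quasi-likelihood test gave an adjusted p under 0.05 over all genes tested.

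The bases just before the annotated start are shown for 3 genes on which the results turn. Cacna1i had the largest rise from birth to PND14 among the pore-forming subunits, and Ryr1 had the largest fall among the release channels. Itpr3 fell with age in saline pups and was lower with morphine at PND1. The sequences are from RefSeq (GRCm38.p6), 5′ to 3′ on the strand of the gene, and capitals mark each GC box (GGGCGG, or CCGCCC on the other strand). The windows are chr15:80287038-80287237 (plus strand) for Cacna1i, chr17:27057104-27057303 (plus strand) for Itpr3 and chr7:29125152-29125351 (minus strand) for Ryr1.
Cacna1i: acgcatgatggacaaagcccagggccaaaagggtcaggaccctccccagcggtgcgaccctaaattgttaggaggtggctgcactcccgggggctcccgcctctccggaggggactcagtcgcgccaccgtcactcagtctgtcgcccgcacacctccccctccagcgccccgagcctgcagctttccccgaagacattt
Itpr3: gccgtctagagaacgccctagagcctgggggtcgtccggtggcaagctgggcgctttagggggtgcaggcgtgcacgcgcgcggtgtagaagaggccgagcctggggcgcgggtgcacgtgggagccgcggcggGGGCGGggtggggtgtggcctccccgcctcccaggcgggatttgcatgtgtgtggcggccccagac
Ryr1: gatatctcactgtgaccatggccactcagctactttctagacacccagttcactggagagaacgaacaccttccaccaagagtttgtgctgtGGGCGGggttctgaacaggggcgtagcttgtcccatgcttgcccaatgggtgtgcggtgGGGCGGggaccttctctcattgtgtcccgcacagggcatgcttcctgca
The window of Cacna1i held 0 GC boxes, that of Itpr3 1 and that of Ryr1 2, while windows of other members that were higher at PND14 held up to 6 (Cacna2d1). Over the 24 members listed by RefSeq, 17 of 33 promoter windows (51.5%) held a GC box on either strand, against 31.0% of all 32851 windows of the same 200 bases. The cAMP response element TGACGTCA, a palindrome, was in 0 of the 33 and in 1.47% of all windows, so no GC box overlapped one in the members. The members' windows had a median of 8 CG dinucleotides and 61.5% G and C, against 5 and 53.0% for all windows. A match of letters in these windows is a description and says nothing of binding.

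With age, the family was largely rearranged. In saline pups, 19 of the 32 members were higher at PND14 than at PND1 and 11 were lower, and in 22 of the 32 the 12 PND14 and 14 PND1 libraries did not overlap, against 48.7% of all genes tested. This comparison moved most of the transcriptome: 41.7% of the 22010 genes tested were called higher and 43.2% lower. The median log2FC of the members was 0.67, against -0.02 over all genes tested, and the median size of change, whichever its direction, was 1.00 against 0.58. The beta subunits had 3 members higher and 0 lower, while each other subunit or receptor family had members called in both directions, as the age steps of all 32 genes show. Families were not compared by a test. In bulk tissue, fewer cells of a type and less RNA per cell cannot be told apart.

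**Figure D1:**
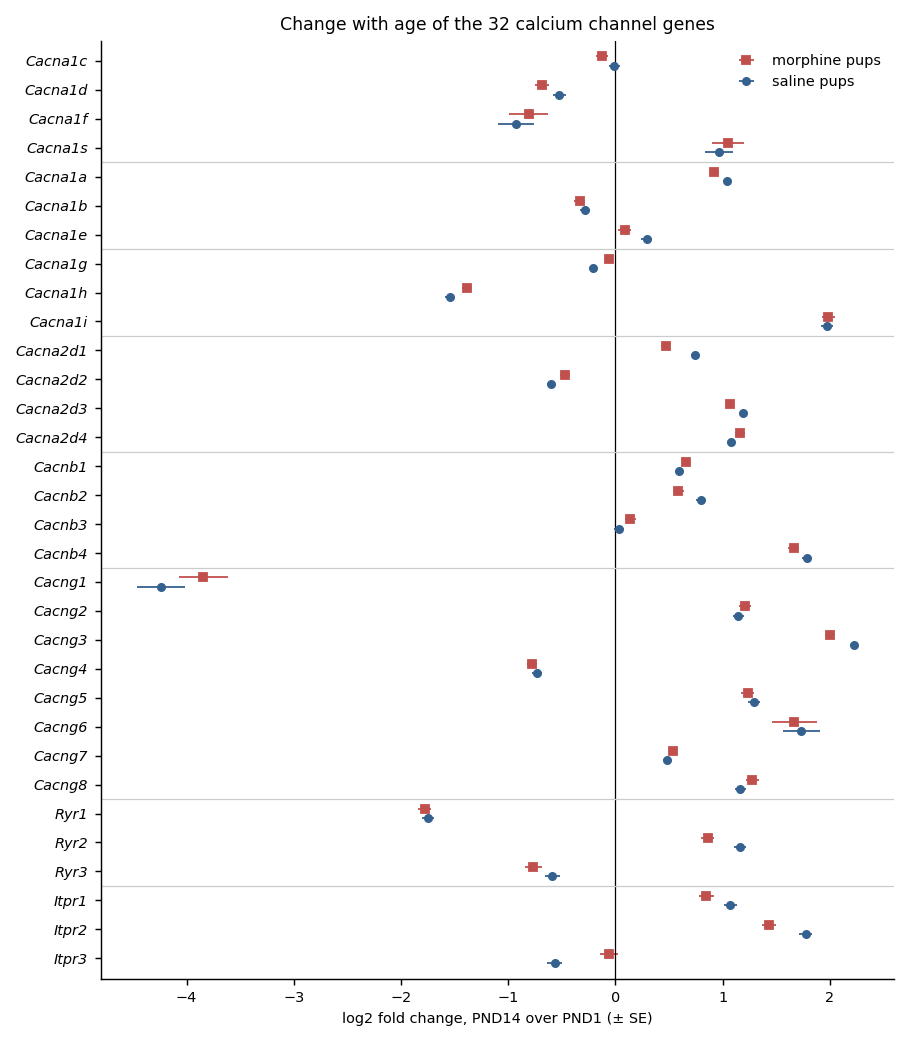
Change with age of each of the 32 members, as log2FC of PND14 over PND1 with its standard error, in morphine pups (12 against 10 libraries) and saline pups (12 against 14 libraries). Genes at the right of 0 were higher at PND14; Cacng3 had the highest log2FC in saline pups (2.23) and Cacng1 the lowest (-4.24).

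Of the T-type pores, 1 rose and 2 fell. Cacna1i (CaV3.3) had 148 to 181 CPM (median 165) in PND14 saline pups, against 30.7 to 51.6 CPM (median 42.1) in PND1 saline pups. Every PND14 library was above every PND1 library, with a log2FC of 1.98 (SE 0.054, edgeR adjusted p = 5.37e-45). Cacna1h (CaV3.2), the T-type pore known from sensory neurons, ran the other way, with 61.2 to 79.0 CPM (median 72.6) at PND14 and 162 to 246 CPM (median 214) at PND1, also without overlap (log2FC -1.54, SE 0.042). Cacna1g (CaV3.1), the pore of thalamic relay cells, fell by less, with 172 ± 10.0 CPM at PND14 and 200.2 ± 18.3 CPM at PND1 (SD, n = 12 and 14, log2FC -0.21).

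Per kilobase of exon, the T-type pores together had nearly the same level at both ages, 41.2 CPM per kb at PND14 and 45.7 CPM per kb at PND1 in saline pups, but the shares within that sum were different. Cacna1i made up 40.6% of it at PND14 and 9.29% at PND1, Cacna1h 18.0% and 47.5%, and Cacna1g 41.3% and 43.2%. These shares are by the joined exon length of each gene and do not count channels.

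The CaV2 pores moved in both directions. Cacna1a (P/Q-type) had 251 to 353 CPM (median 305) in PND14 saline pups, against 131 to 171 CPM (median 149) in PND1 saline pups, with no overlap (log2FC 1.04, SE 0.038). Cacna1b (N-type) was lower at PND14, with 196 ± 16.3 CPM against 238 ± 19.4 CPM at PND1 (log2FC -0.28, SE 0.045), although the ranges overlapped. Cacna1e (R-type) rose by 0.29 on the log2 scale. P/Q-type transcripts were 46.1% of the summed CaV2 level per kb of exon at PND14 and 28.0% at PND1, and N-type transcripts 33.9% and 51.5%. These shares depend on the length used. Per kb of the longest transcript, Cacna1a, Cacna1b and Cacna1e had 38.5, 20.1 and 19.7 CPM per kb at PND14, against 18.75, 24.5 and 16.1 CPM per kb at PND1.

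Of the L-type pores, Cacna1c (CaV1.2), the main L-type pore of brain and heart, had 147 ± 13.6 CPM at PND14 and 148 ± 12.6 CPM at PND1 and was not called (log2FC -0.01). Cacna1d (CaV1.3), which opens at more negative voltages, fell by 0.52 on the log2 scale (SE 0.060), with 80.1 ± 8.98 CPM at PND14 against 115 ± 10.7 CPM at PND1. The muscle pore Cacna1s and the retinal pore Cacna1f were near the limit of detection. Cacna1s had 12 to 36 counts a library at PND14, against 12 to 35 in the deeper PND1 libraries, and was called higher (log2FC 0.96), and Cacna1f had 3 to 13 counts at PND14, against 22 to 39 at PND1, and was called lower (log2FC -0.93).

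All 4 alpha2delta genes changed with age, 3 upwards. Cacna2d3 (alpha2delta-3, which acts in hearing and pain processing) had 127 to 164 CPM (median 146) at PND14, against 58.3 to 71.7 CPM (median 63.5) at PND1 (log2FC 1.19, SE 0.031). Cacna2d4, best known from photoreceptors, had a log2FC of 1.08 and Cacna2d1, a gabapentin receptor, of 0.74. Cacna2d2, the gene mutated in the ducky mouse, fell, with 67.8 to 88.2 CPM (median 80.0) at PND14 and 105 to 132 CPM (median 120.4) at PND1 (log2FC -0.60, SE 0.041). None of the 4 had overlapping ranges between the ages. Cacna2d2 made up 18.4% of the alpha2delta level per kb of exon at PND14 and 39.5% at PND1. Per kb of exon it had the highest PND1 level of the 4 (15.0 CPM per kb, against 14.0 for Cacna2d1). Per kb of the longest transcript Cacna2d1 was above it (23.4 against 20.6 CPM per kb).

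Of the beta subunits, Cacnb4, which is mutated in the lethargic mouse, rose most. It had 131 to 165 CPM (median 151) in PND14 saline pups, against 33.4 to 50.0 CPM (median 44.2) in PND1 saline pups (log2FC 1.79, SE 0.046). Cacnb2, the main cardiac form, rose by 0.80 and Cacnb1, the form of skeletal muscle that is also made in brain, by 0.59 on the log2 scale, both without overlap. Cacnb3 was the beta subunit with the highest level per kb at both ages and was not called (182 to 218 CPM at PND14, 160 to 233 CPM at PND1, log2FC 0.03). Its share of the beta level per kb was 48.2% at PND14 and 62.6% at PND1.

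The TARPs changed places. Cacng3 (gamma-3), a TARP of forebrain excitatory neurons, had the largest rise of all 32 members, with 104 to 122 CPM (median 111) at PND14 and 20.9 to 26.8 CPM (median 23.6) at PND1 (log2FC 2.23, SE 0.038, edgeR adjusted p = 1.04e-57). Cacng8 (gamma-8), the hippocampal TARP, and Cacng2 (gamma-2, stargazin, the cerebellar and cortical TARP) rose by 1.17 and 1.15 on the log2 scale. Cacng4 (gamma-4) fell, with 124 to 165 CPM (median 138) at PND14, against 209.9 to 242 CPM (median 231) at PND1 (log2FC -0.73, SE 0.045).

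Among these 4 type I TARPs, Cacng4 contributed 28.1% of the level per kb at PND14 and 64.8% at PND1, and Cacng3 29.2% and 8.65%. The type II TARPs rose as well, Cacng5 by 1.29 and Cacng7 by 0.48 on the log2 scale. Cacng7 had the highest level per kb of exon of all 32 members at PND14 (70.4 CPM per kb), whereas at PND1 Cacng4 did (64.0 CPM per kb). The PND1 place depended on the length used. Per kb of the longest transcript, Cacnb3 was highest at PND1 (72.1 CPM per kb, against 65.4 for Cacng4). Cacng7 stayed highest at PND14 (77.7 CPM per kb). In the order by exon length, 25 of the 31 pairs of neighbouring members had overlapping ranges at PND14, and 26 of 31 at PND1.

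Cacng1, the gamma subunit of the skeletal muscle channel, had the largest change of any member, with 1 to 8 counts a library in PND14 saline pups and 76 to 209 counts in PND1 saline pups (0.268 ± 0.142 CPM and 5.26 ± 1.56 CPM, log2FC -4.24, SE 0.226). Its relative Cacng6 rose (log2FC 1.73) at 7 to 32 counts against 8 to 24 counts. Summed over 10 skeletal muscle markers, the level was 20.6 to 28.6 CPM at PND14 and 6.75 to 8.83 CPM at PND1, and of the 8 markers tested 4 were higher and 2 lower, none being at 0 in every library. Of this sum, Pvalb, which is also made by inhibitory neurons, gave 12.9 CPM at PND14 and 0.857 CPM at PND1. The part of muscle in the fall of Cacng1 was not tested.

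**Figure D2:**
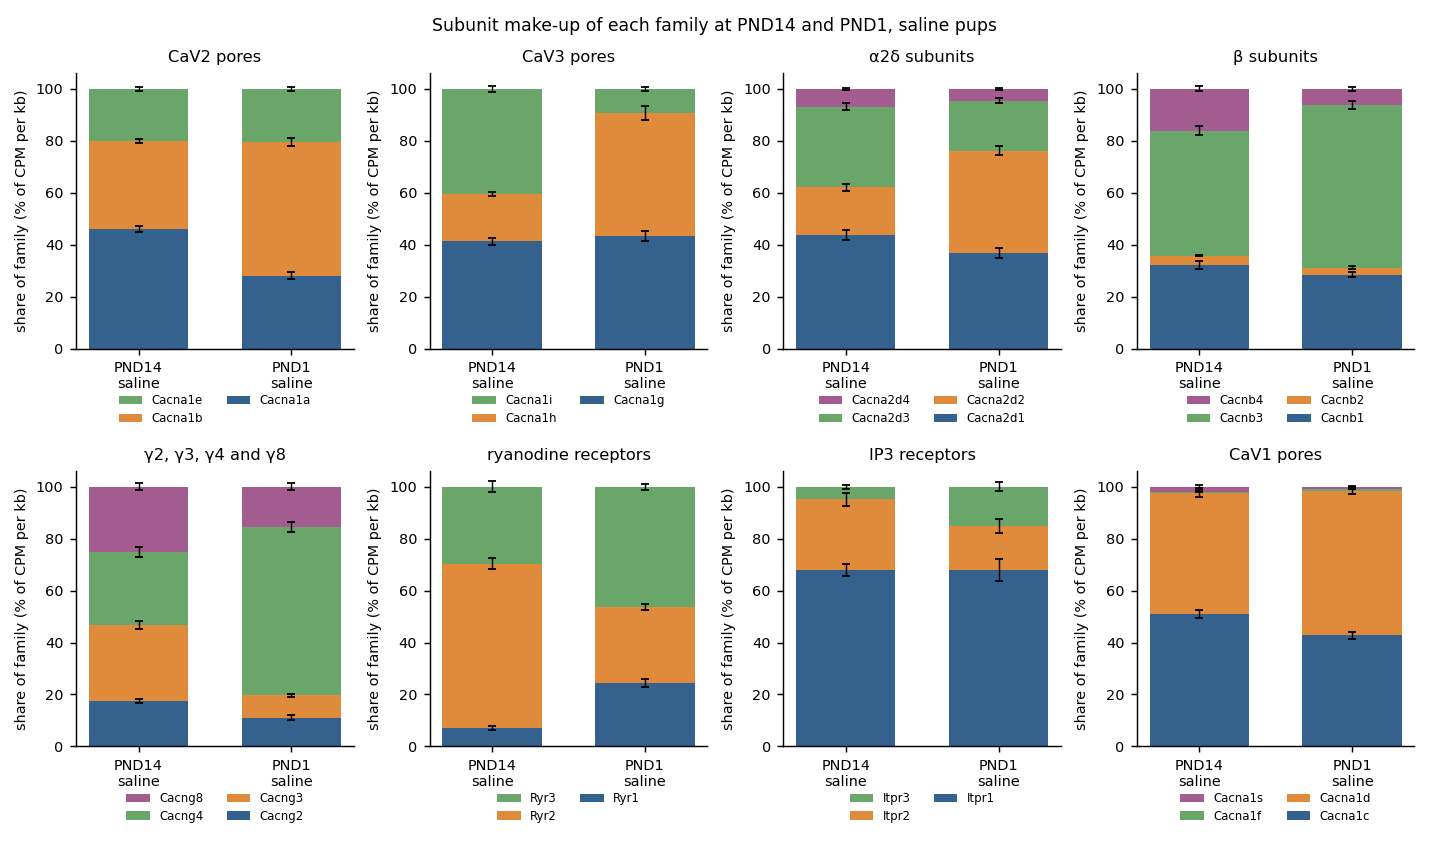
Share of each member in the summed level of its family (CPM per kb of exon) in PND14 saline pups (left bars, n = 12) and PND1 saline pups (right bars, n = 14), stacked to 100%, with SD as error bars. In the T-type panel, Cacna1i takes 40.6% at PND14 and 9.29% at PND1, and Cacna1h 18.0% and 47.5%.

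The ryanodine receptors exchanged rank. Ryr2, the cardiac and main brain form, had 124 to 189 CPM (median 161) at PND14, against 58.6 to 82.1 CPM (median 72.5) at PND1 (log2FC 1.16, SE 0.055). Ryr1, the skeletal muscle form that Purkinje cells also make, fell more than each member but Cacng1, with 11.7 to 15.1 CPM (median 13.4) at PND14 and 35.4 to 52.0 CPM (median 45.0) at PND1 (log2FC -1.75, SE 0.056). Ryr3 fell by 0.59 on the log2 scale, with overlapping ranges. The summed level per kb was 8.84 CPM per kb at PND14 and 8.54 CPM per kb at PND1, of which Ryr2 gave 63.3% and 29.2%, Ryr3 29.7% and 46.4%, and Ryr1 7.08% and 24.5%.

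Of the IP3 receptors, Itpr1, the main neuronal form, had 158 to 195 CPM (median 178) at PND14 and 66.1 to 102 CPM (median 84.2) at PND1 (log2FC 1.07, SE 0.059). Itpr2, the main IP3 receptor of astrocytes, rose more, with 42.7 to 69.6 CPM (median 58.2) at PND14 and 12.9 to 19.4 CPM (median 17.0) at PND1 (log2FC 1.78, SE 0.059). Itpr3, a form of secretory and taste cells that neurons make little of, fell, with 4.66 to 7.55 CPM (median 6.22) at PND14 and 8.00 to 10.8 CPM (median 9.25) at PND1 (log2FC -0.57, SE 0.072). Itpr1 kept its share of the IP3 receptor level per kb, 67.8% at PND14 and 67.9% at PND1, while Itpr3 had 4.86% and 15.2%.

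Markers of other cells and regions moved over the same interval. Summed levels of 6 oligodendrocyte markers had a median of 4701 CPM in PND14 saline pups and 199 CPM in PND1 saline pups (6 of 6 higher), those of 6 astrocyte markers 4330 CPM and 716 CPM (5 of 6 higher), and those of 6 immature neuron markers 1511 CPM and 4621 CPM (6 of 6 lower). Over 17 hindbrain and spinal cord markers the sum was 0.512 to 6.51 CPM at PND14 and 0.808 to 94.4 CPM at PND1, with 16 of 16 tested lower, and of the 17 genes 3 were at 0 in every PND14 saline library. The part of these markers in the changes of the channels was not tested.

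The same interval was followed in morphine pups, which share no library with the saline pups. In them 19 members were called higher at PND14 and 10 lower, against 41.8% and 41.6% of all genes. Cacng3 (log2FC 2.00), Cacna1i (1.99), Cacnb4 (1.66), Ryr1 (-1.78) and Cacng1 (-3.84) were again among the called members. Itpr3 was not called in morphine pups, with 6.24 ± 1.04 CPM at PND14 and 6.33 ± 0.999 CPM at PND1 (log2FC -0.06), and Cacna1e and Cacna1g were not called either (log2FC 0.09 and -0.06). Cacna1c (-0.13) and Cacnb3 (0.14) were called in morphine pups. The difference between the age steps of the drugs is the same quantity as the change of the drug effect between windows, which was called for Itpr3 and Cacna1g and not for Cacna1e, Cacna1c or Cacnb3. With a correction for GC content and length the Cacna1c call was lost and the Cacnb3 value turned to -0.12 (edgeR adjusted p = 0.0120). The Cacnb3 call was also lost with DESeq2 size factors and with no filter on low counts (edgeR adjusted p = 0.0857 and 0.0913). In DESeq2 it was lost too (adjusted p = 0.101).

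The 3-Tri saline pups gave a check on the PND14 levels in pups whose dams had carried a pump. Against PND14 saline pups, 0 of 32 members were called in edgeR and 0 in DESeq2, 0 had an unadjusted p under 0.05, and 0.0% of all genes were called in each direction. The median size of the difference over the members was 0.02 on the log2 scale and the values lay between -0.15 and 0.25. Against PND1 saline pups, which both comparisons share, 19 members were higher and 11 lower in 3-Tri saline pups, with 42.1% of all genes higher and 43.0% lower.

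At PND1, 5 of 32 members were called between male-coded pups with prenatal morphine and with saline. Cacna2d1, Cacng4 and Ryr2 were higher with morphine and Itpr3 and Cacna1h lower. The background was 6.31% of 21714 genes higher and 8.08% lower, so that 3 and 2 of 32 members lie near it, and the median size of the effect was 0.11 on the log2 scale in the members and 0.12 in all genes. With both codes joined, 4 members were higher and 3 lower, against 7.39% and 9.43% of all genes. With the sex code left out of the fit the same 4 were higher and 3 lower, against 8.22% and 11.4% of all genes. Without the male-coded morphine replicate 5, whose sex genes went against its label, 7 members were higher and 4 lower, and over all genes 10.5% were higher and 12.7% lower in that fit. With each library left out in turn, 3 to 7 members were called in male-coded pups, the 3 without the male-coded morphine replicate 8 or 10 or the male-coded saline replicate 9, 10, 11 or 12. Of the 32 members, 31 had overlapping ranges between the drugs with both codes joined, and 0.0507% of all genes did not overlap.

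Itpr3 was the exception to that overlap. Its level was 5.21 to 7.27 CPM (median 5.62) in the 6 male-coded morphine pups, against 8.00 to 10.8 CPM (median 9.51) in the 7 male-coded saline pups. In the 4 female-coded morphine pups it was 7.99, 6.23, 7.68 and 6.40 CPM, against 8.10 to 10.1 CPM (median 9.12) in the 7 female-coded saline pups. All 10 morphine pups lay below all 14 saline pups, by a gap between 7.99 and 8.00 CPM, with 123 to 202 counts against 192 to 327 counts a library.

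The log2FC of Itpr3 was -0.69 in male-coded pups (SE 0.092, edgeR adjusted p = 0.000119), -0.35 in female-coded pups (SE 0.102, edgeR adjusted p = 0.174) and -0.52 with both joined (SE 0.069, edgeR adjusted p = 5.36e-05). The effect in male-coded minus that in female-coded pups was -0.33 (95% interval -0.60 to -0.07, edgeR unadjusted p = 0.0214, adjusted p = 0.871). In male-coded pups the call was lost where a replicate block was fitted with a GC and length correction (log2FC -0.57, adjusted p = 0.0521), and the joined call was lost under no alternative. Itpr3 overlaps the antisense gene Itpr3os, which lay between 0.04 and 0.41 CPM, at PND1, and whether the counting used strand is not stated.

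Over the windows, Itpr3 in morphine pups at PND1 (mean 6.33 CPM) was at the level of PND14 pups of either drug (6.24 CPM with morphine, 6.22 CPM with saline), while PND1 saline pups stood at 9.22 CPM. The 3-Tri pups had 6.03 ± 0.869 CPM with morphine and 6.36 ± 1.00 CPM with saline. The PND1 saline mean was the highest of the 6.

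**Figure D3:**
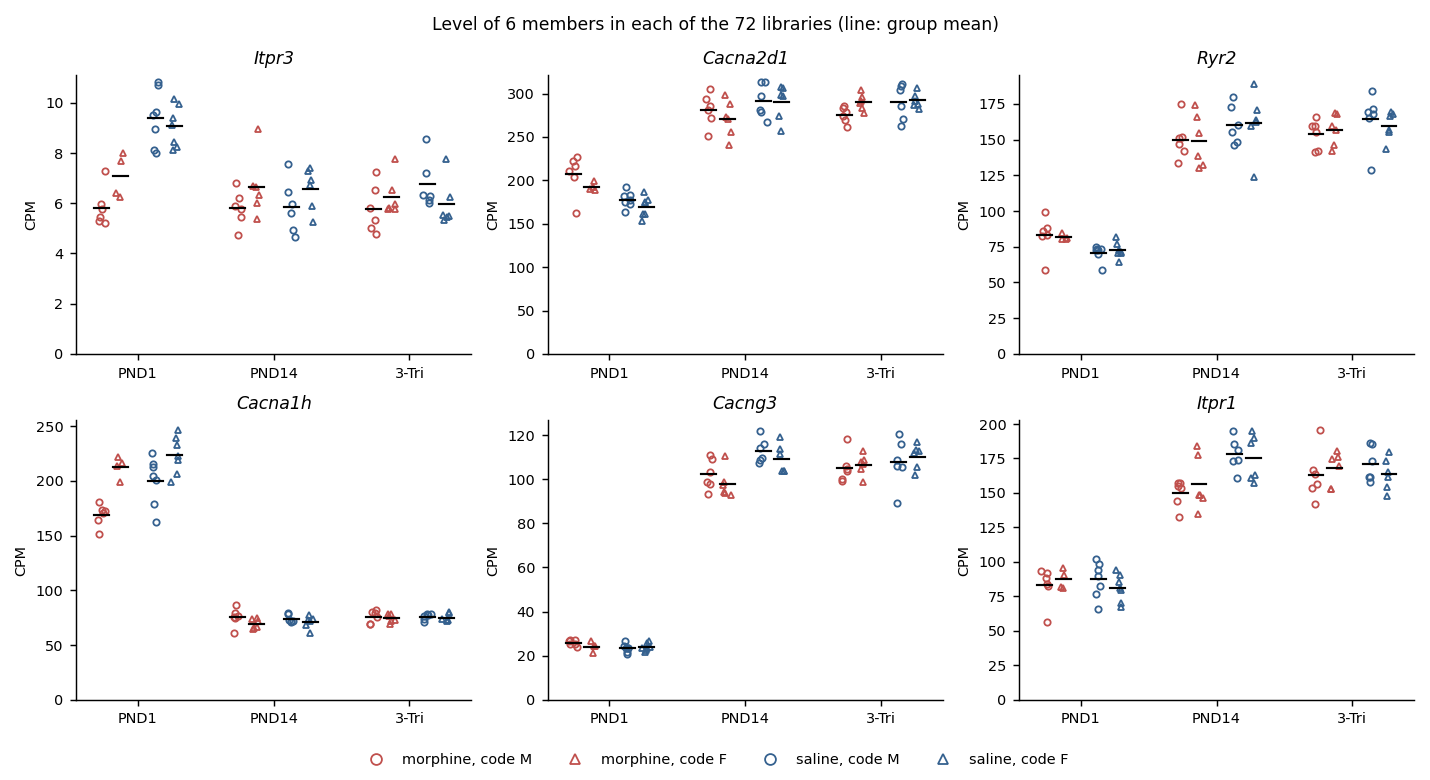
Level in CPM of Itpr3, Cacna2d1, Ryr2, Cacna1h, Cacng3 and Itpr1 in each of the 72 libraries by window, with morphine pups left of saline pups, male-coded pups as circles, female-coded pups as triangles and the mean as a line. In the Itpr3 panel the 10 PND1 morphine pups lie at 5.21 to 7.99 CPM, below the 14 PND1 saline pups at 8.00 to 10.8 CPM.

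Of the other release channels, Ryr2 was higher with morphine at PND1, with 58.8 to 99.3 CPM (median 84.8) against 58.6 to 75.0 CPM (median 72.5) in male-coded pups (log2FC 0.23, SE 0.078, edgeR adjusted p = 0.0466). With both codes joined its log2FC was 0.20 (adjusted p = 0.0195). The joined call held under each of the 33 alternatives run, whereas the male-coded call was lost in 23 of 33 alternatives. Itpr2 was called only with both codes joined, with 19.3 ± 2.55 CPM in morphine pups and 16.8 ± 1.72 CPM in saline pups (log2FC 0.19, adjusted p = 0.0493, lost in 22 of 33 alternatives). Itpr1, Ryr1 and Ryr3 were not called.

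Of the channel subunits, Cacna2d1 rose. It had 163 to 227 CPM (median 214) in male-coded morphine pups and 163 to 192 CPM (median 177) in male-coded saline pups, and 5 of 6 morphine pups were above all saline pups (log2FC 0.22, SE 0.058, edgeR adjusted p = 0.0125). In female-coded pups the values were 199, 189, 192 and 190.2 CPM with morphine, against 153 to 186 CPM (median 174) with saline, which did not overlap (2.52% of all genes did not), although the test missed the threshold (log2FC 0.18, edgeR adjusted p = 0.268). Joined, the log2FC was 0.20 (adjusted p = 0.00271), a call lost under no alternative, but its size depended on the correction for GC content and length, with which it was 0.09 (adjusted p = 0.0128). The same correction ended the male-coded call (0.09, adjusted p = 0.0971).

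The TARP gene Cacng4 was higher, with 238 to 274 CPM (median 247) in male-coded morphine pups and 217 to 242 CPM (median 226) in male-coded saline pups (log2FC 0.13, adjusted p = 0.0307, lost in 14 of 33 alternatives). Cacna1h was lower, with 152 to 181 CPM (median 172) against 162 to 226 CPM (median 205) in male-coded pups (log2FC -0.25, SE 0.061, adjusted p = 0.00834). Cacnb1 was lower with both codes joined (log2FC -0.13, adjusted p = 0.0138). The calls of Cacna1h and Cacnb1, with 60.0% and 59.7% G and C in their exons, were lost with the GC and length correction (log2FC -0.09 in male-coded pups and -0.01 joined). In female-coded pups, 0 of 32 members were called in edgeR and 0 in DESeq2, 4 had an unadjusted p under 0.05 (Itpr3, Cacna2d1, Cacng4 and Cacnb1), and 0.0% of all genes were called.

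At PND1 the summed level of the 17 hindbrain and spinal cord markers was 30.8 to 169 CPM (median 105) in male-coded morphine pups and 2.87 to 76.3 CPM (median 37.8) in male-coded saline pups, and 2 of 16 markers tested were called higher. With this sum as a covariate, a fit chosen after seeing the data, 3 members were called in male-coded pups, against 3.33% of all genes higher and 4.98% lower in that fit. The male-coded calls of Cacng4 (log2FC 0.13, adjusted p = 0.065) and Ryr2 (log2FC 0.21, adjusted p = 0.116) were lost at nearly the same size. Of the 7 joined calls, 5 held, that of Itpr3 among them (log2FC -0.53), and those of Cacna1h (log2FC -0.12, adjusted p = 0.063) and Itpr2 (log2FC 0.13, adjusted p = 0.143) were lost. Skeletal muscle markers summed to 6.98 to 8.21 CPM with morphine and 6.75 to 8.83 CPM with saline over both codes.

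**Figure D4:**
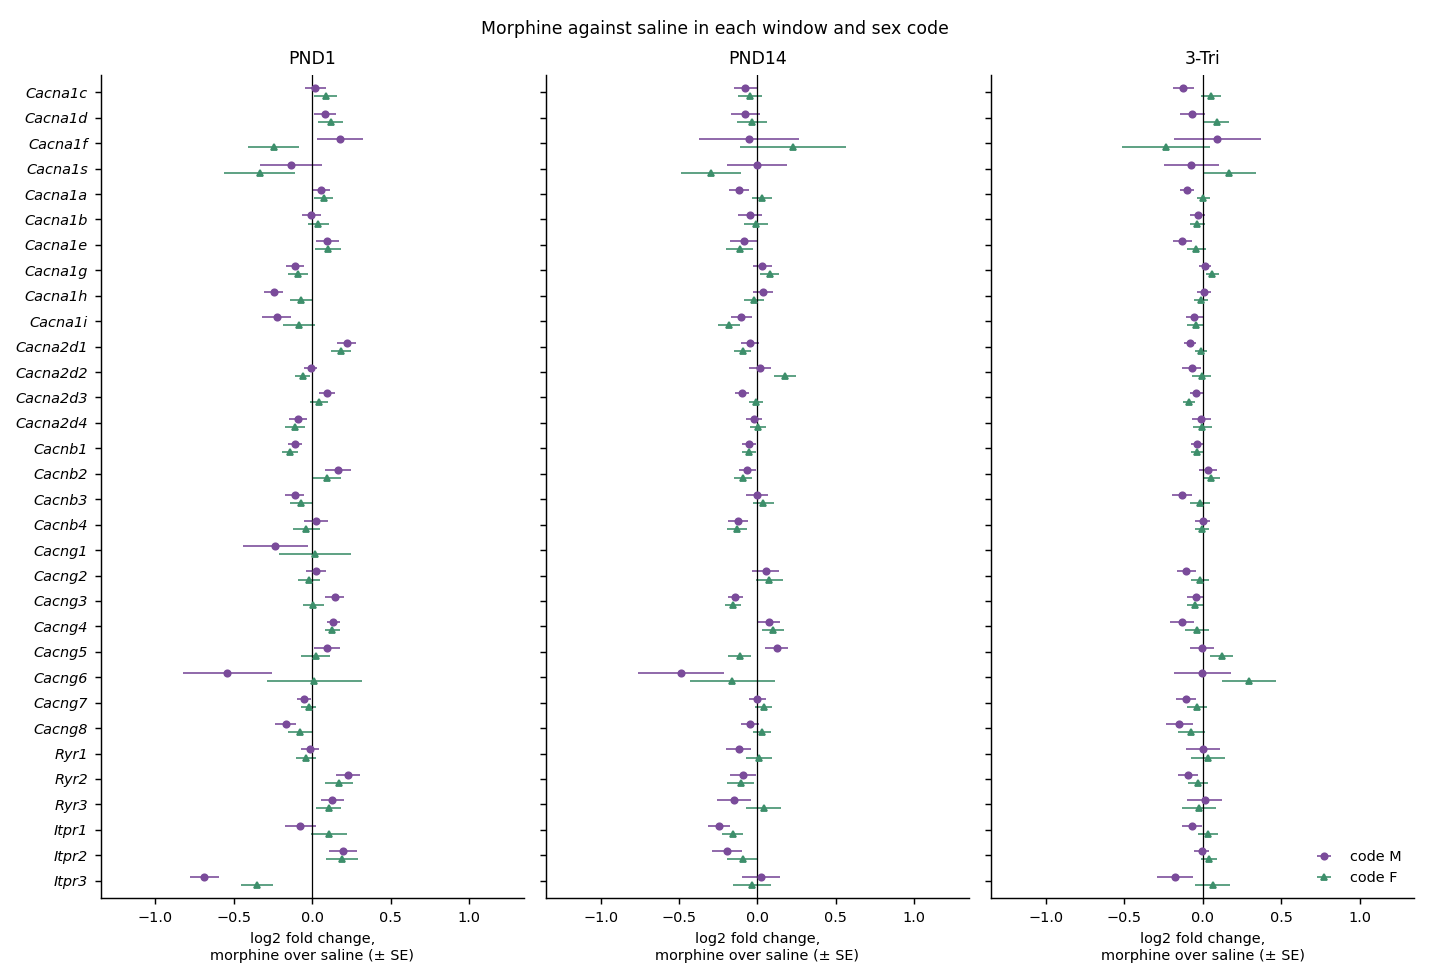
Log2FC of morphine over saline with its standard error for each member in the PND1, PND14 and 3-Tri windows, in male-coded and female-coded pups. Cacng1 was too low to test at PND14 and 3-Tri; Itpr3 at PND1 lies at -0.69 in male-coded and -0.35 in female-coded pups.

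At PND14, 2 of 31 members were called between pups injected with morphine and with saline, with both codes joined, and both were lower with morphine. Itpr1 had 132 to 184 CPM (median 151) in 12 morphine pups and 158 to 195 CPM (median 178) in 12 saline pups (log2FC -0.20, SE 0.049, edgeR adjusted p = 0.0326), and 10 of 12 morphine pups were below all saline pups. Cacng3 had 92.8 to 111 CPM (median 98.4) with morphine and 104 to 122 CPM (median 111) with saline (log2FC -0.15, SE 0.036, edgeR adjusted p = 0.0319), with 9 of 12 below all saline pups. The background was 0.626% of 19636 genes higher and 1.06% lower, and with the sex code left out of the fit, where both were called as well, 0.744% and 1.29%.

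Sample IDs of these pups open with a number that is nested in the drug, 4422 and 4423 for morphine and 4424 and 4425 for saline, and what it marks is not stated. Itpr1 averaged 154 and 153 CPM in the 2 morphine numbers and 176 and 178 CPM in the 2 saline numbers, and Cacng3 101 and 99.0 CPM against 110.2 and 112.0 CPM. Without each number in turn, the Itpr1 call was lost each time (adjusted p from 0.0845 to 0.323), while its log2FC stayed between -0.21 and -0.19. The Cacng3 call was lost without 4423, 4424 or 4425 (adjusted p from 0.157 to 0.339), and the log2FC stayed between -0.16 and -0.13 in those 3 fits. With the number as a random effect in limma, both members were called. Each drug had only 2 numbers, so this fit cannot decide whether the drugs differ beyond the spread between numbers.

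By code, 0 of 31 members were called at PND14 in edgeR in either sex, with 4 at an unadjusted p under 0.05 in male-coded and 5 in female-coded pups, and DESeq2 called 1 and 0. The 1 member was Itpr1, whose male-coded pups did not overlap (1.11% of all genes did not), at 132 to 157 CPM (median 154) with morphine and 161 to 195 CPM (median 178) with saline (log2FC -0.25, edgeR adjusted p = 0.141). Of all genes 0.0815% were higher and 0.199% lower in male-coded pups, and 0.0% in female-coded pups. Over the PND14 pups of both codes, oligodendrocyte markers summed to 2688 to 5107 CPM (median 3858) with morphine and 4068 to 5987 CPM (median 4701) with saline, with 4 of 6 called lower and none at 0. Their part in the change of Itpr1 and Cacng3 was not tested.

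In the 3-Tri pups, which had the longest exposure, 0 of 31 members were called in edgeR or DESeq2 in male-coded pups, in female-coded pups or with both joined, with 3, 1 and 1 at an unadjusted p under 0.05, and 0.0% of 19730 genes were called. Itpr1 had 165 ± 14.9 CPM with morphine and 167 ± 12.2 CPM with saline (log2FC -0.02, 95% interval -0.10 to 0.07). Cacng3 had a log2FC of -0.05 (interval -0.12 to 0.02) and Itpr3 of -0.06 (interval -0.21 to 0.10). Whether the 3-Tri effects differ from the PND14 effects was not tested. In 12 of these 24 libraries the sex-specific genes went against the label, and without them 0 members were called with both codes joined. Whether the drug labels of those libraries hold was not tested.

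The morphine effect was called different between the codes for no member, with 0 of 32 called at PND1 and 0 of 31 at PND14 and in 3-Tri in edgeR or DESeq2, 1, 1 and 0 members at an unadjusted p under 0.05 and 0.0% of all genes. The 2 members were Itpr3 at PND1 and Cacng5 at PND14 (0.24). At PND14, where the sex genes fit all labels, male-coded against female-coded pups over both drugs differed in 0 of 31 members in edgeR or DESeq2 (3 unadjusted, Cacng8, Cacna1h and Cacnb1, each with a log2FC under 0.10), against 0.0255% of genes higher and 0.0815% lower. Cacna1f lies on the X chromosome and was not called in any comparison of sex or drug.

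The change of the drug effect between windows was tested as the PND14 effect minus the PND1 effect, with both codes joined. It was called for 7 members, 2 higher and 5 lower, where 7.25% of all 22010 genes were higher and 6.07% lower. Itpr3 had the largest difference, 0.51 (SE 0.110, edgeR adjusted p = 0.00104). Ryr2 (-0.30), Itpr2 (-0.34), Cacna2d1 (-0.28) and Cacng3 (-0.23) had lower effects at PND14 than at PND1. The calls of Itpr3, Ryr2, Itpr2 and Cacna2d1 were lost under no alternative, although with a GC and length correction the difference was -0.17 for Ryr2 and -0.13 for Cacna2d1, that of Cacng3 was lost with a replicate block (adjusted p = 0.107), and those of Cacna1g (0.15) and Cacnb2 (-0.21) were lost in 7 and 5 of 10 alternatives. The test uses the same libraries as the drug effects within the windows and is no separate evidence of them.

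Other genes of calcium handling were read from a list of 66 pumps, exchangers, buffers, store proteins and messenger enzymes, all of which were tested. At PND14 against PND1 in saline pups 53 were higher and 8 lower, where 41.7% and 43.2% of all genes were. Itpka, a kinase that uses up IP3, had a log2FC of 4.25, the potassium-dependent exchanger Slc24a2 of 3.81, the sodium-calcium exchanger Slc8a2 of 2.43 and the calcium pump Atp2b2 of 2.31. In morphine pups 55 were higher and 9 lower, where 41.8% and 41.6% of all genes were.

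With morphine at PND1, 4 of the 66 were higher and 7 lower in male-coded pups, where 6.31% and 8.08% of all genes were, and 7 were higher and 10 lower with both codes joined, where 7.39% and 9.43% were. These counts lie near the background. Plcb3, a phospholipase C that makes IP3, was lower (log2FC -0.31), as were Jph3, which ties the store to the membrane (-0.22), and Slc8a2 (-0.22), while the calcium sensor Vsnl1 was higher (0.28), all in male-coded pups. At PND14 with both codes joined, 0 were higher and 2 lower, where 0.626% and 1.06% of all genes were, the scaffold Homer1, which links glutamate receptors to IP3 receptors (-0.16), and Slc24a2 (-0.23). In 3-Tri pups 0 of 66 were called.

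Between pups of a group, members with a mean of at least 100 counts varied by a median coefficient of variation of 7.70% at PND1, 8.35% at PND14 and 6.76% in 3-Tri. Cacng1, Cacng6, Cacna1f and Cacna1s fell under 100 counts a library in most groups, and their values rest on few reads.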

How the data were processed

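Raw read counts per gene, deposited by the authors for the 72 libraries, were used as they stood. According to the study's methods, poly(A) libraries were sequenced as read pairs, trimmed with Trim Galore 0.6.6, aligned with HISAT2 2.2.1 to mm10, cleared of duplicated fragments with Picard and counted with featureCounts 2.0.1. Whether the counting used strand is not stated. The deposited tables of the authors' own DESeq2 comparisons hold fold changes and p-values, none of which was used. Gene symbols and biotypes were taken from 6 of these tables, and the other 6 were not used.

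Groups were taken from the labels. Genes were kept by filterByExpr (minimum count 10, minimum total 15) and tested with edgeR 4.0.16 (R 4.3.3), TMM scaling and the quasi-likelihood test, with Benjamini-Hochberg adjustment over all genes. Drug and sex were fitted in the 24 libraries of a window, and age and differences of drug effects in all 72 libraries. The main edgeR fit was tested on simulated counts with known changes. The alternatives and the other steps were not tested in that way. Alternatives used DESeq2 1.42.0, limma 3.58.1, other scalings and filters, lowess corrections for GC content and length, a replicate block, and fits without libraries, ID numbers or the sex code. The replicate block joined pups of a code by the number in their sample title, which is not stated to mark a pair. Exon lengths, GC content and positions came from GENCODE release M21, not the annotation of the counting, and promoter sequences from RefSeq (GRCm38.p6). The promoter sequence of 1 member is not reported here.

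All members were named, with full statistics for those called. Of the 66 calcium handling genes, up to 4 a comparison were named by smallest p. The members, the gene lists and the markers of oligodendrocytes, astrocytes, immature neurons, hindbrain and skeletal muscle were chosen with earlier results of these data known. Total counts of 3113919 to 27333125 a library set the precision. No 2 libraries of the same group agreed within sampling noise (lowest chi-square 1.64 a gene), and libraries of different groups were not compared in this way.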

Additional observations from a re-analysis of the deposited data

Results flagged for a closer look

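Each member was checked in each group of 4 to 7 pups, which made 384 groups. Of these, 33 had a pup whose gap to its nearest neighbour took up more of the group's range than Dixon's 95% limit allows. Chance flags about 1 in 20 groups, or 19.2 here. Of the 33 flags, 7 fell on the male-coded 3-Tri saline replicate 1, a library under 5000000 counts, 6 on the male-coded PND1 morphine replicate 5, whose sex genes went against its label, and 4 on the male-coded PND1 saline replicate 13.

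In the 3-Tri saline replicate 1, Cacnb3 stood at 278.0 CPM (others 189.8 to 203.2 CPM), Cacng2 at 174.7 CPM, Cacng4 at 198.9 CPM, Cacng7 at 241.6 CPM, Cacng8 at 135.3 CPM and Cacna2d2 at 113.4 CPM, all above their group, and Cacnb2 at 37.91 CPM below it. In the PND1 morphine replicate 5, 6 members were below their group: Cacna1c at 119.1 CPM (others 150.1 to 163.8 CPM), Cacna1d at 90.79 CPM, Cacna1e at 192.5 CPM, Cacna2d1 at 162.9 CPM, Ryr3 at 57.44 CPM and Itpr1 at 56.41 CPM. The PND1 saline replicate 13 was below its group in Cacna1d at 83.78 CPM, Cacna1b at 182.2 CPM, Ryr2 at 58.6 CPM and Ryr3 at 57.97 CPM. The male-coded 3-Tri saline replicate 3 was low in Cacna1c at 116.2 CPM and Ryr2 at 129.0 CPM, and the female-coded PND1 morphine replicate 2 was low in Cacnb2 at 23.76 CPM and high in Ryr2 at 84.76 CPM.

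The other flagged pups stood alone. With morphine they were high in Itpr3 at 7.266 CPM (male-coded PND1 replicate 6) and 8.942 CPM (female-coded PND14 replicate 10), in Cacng3 at 110.6 CPM (female-coded PND14 replicate 6) and 118.3 CPM (male-coded 3-Tri replicate 4), in Cacng2 at 137.5 CPM (male-coded 3-Tri replicate 3) and in Cacng5 at 47.27 CPM (female-coded 3-Tri replicate 12). With saline they were high in Cacna1d at 132.8 CPM and Cacna1f at 1.408 CPM (female-coded PND1 replicates 2 and 1) and in Cacna1s at 1.387 CPM (male-coded PND1 replicate 14) and 2.284 CPM (male-coded PND14 replicate 3), and low in Cacnb1 at 127.1 CPM (female-coded PND14 replicate 6) and Cacng8 at 30.68 CPM (female-coded PND1 replicate 6).

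The morphine effect at PND14 minus that at PND1 passed the test of the difference in edgeR for 7 members, at log2 differences of 0.5097 for Itpr3, 0.1512 for Cacna1g, -0.2761 for Cacna2d1, -0.2104 for Cacnb2, -0.2261 for Cacng3, -0.3024 for Ryr2 and -0.342 for Itpr2.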

How the results depend on the processing

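The count of members called with age in saline pups was 30 under each alternative run, among them each PND1 saline library left out in turn, and the count in the remaining comparisons not named here stayed within 1.5 times its value. In male-coded PND1 pups 5 members were called, and 3 were called with no filter on low counts, 3 with only the groups compared, 3 with the hindbrain marker sum as a covariate, which was added after seeing the data, and 3 to 7 with each library left out. With both codes joined at PND1, 7 were called and 6 to 11 with each library left out, the 11 without the male-coded morphine replicate 5. Leaving out PND1 libraries kept the female-coded count and the count of differences between codes at 0. In male-coded PND14 pups 1 member, Itpr1, was called in DESeq2 and 1 with only the groups compared, against 0 in the main test. Of the 2 calls with both codes joined at PND14, 1 was left with a GC and length correction, 1 without ID number 4422, and 0 without ID number 4423, 4424 or 4425. The Cacnb3 age step in morphine pups reversed to -0.1204 with the GC and length correction. The cause was not tested.

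Same-numbered pups of the 2 drugs seldom varied together at PND1 and PND14, but more often did in 3-Tri. There the highest correlation was 0.33 in male-coded and 0.31 in female-coded pairs. Same-numbered pups of the 2 drugs correlated at over 0.1 in 1 of 3 male-coded and 0 of 4 female-coded pairs at PND1, 2 and 1 of 6 at PND14, and 3 and 4 of 6 in 3-Tri. With a replicate block, 12 members were called at PND1 with both codes joined and 0 at PND14. At PND1 these are running numbers of the sample titles, of which only 3 male-coded and 4 female-coded ones occurred in both drugs. Nothing states that they pair pups, so the PND1 correlations and block fits cannot be read as results on matched pups. With the replicate block and a GC and length correction, 0 were called in male-coded PND1 pups and 0 at PND14 with both codes joined, and Cacnb3 reversed to -0.09413. Other counts stayed within 1.5 times under the block. Members of few counts (Cacng1, Cacng6, Cacna1f, Cacna1s) are limited by depth, most of all in the 2 libraries under 5000000 counts.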
